A study of Mus musculus with 2 samples.

Results

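HIRA binding in the mouse embryonic heart was described here through the peaks that lay close together. A peak belonged to a cluster when its midpoint was 10 kb or less from the midpoint of the adjacent peak on the same chromosome, and linked peaks were chained. The members were thus selected on the positions of the peaks alone. By this rule 531 of 6624 peaks (8.02%) were members, joined by 303 linked pairs of neighbours into 228 clusters, and 6093 peaks were unlinked. Cluster counts, sizes, spans and distances follow from the rule and are given as a description. The sequence, the annotation and the copy number of the peaks were not used by the rule.

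The peaks come from 1 ChIP library of 30 wild type CD1 hearts at stage E12.5, pooled from 2 dams, which was precipitated with the WC15 antibody against HIRA. The control was 1 input library of the same strain, genotype, age and tissue with no antibody, and no animal carried a mutation or a treatment. The pool holds all cell types of the heart, so no cell type can be told from another. With 1 ChIP library there was no replicate, and the list gives positions without heights, so every peak counted once. The 95% intervals printed below are Wilson intervals over peaks, clusters or pairs, they cover counting error only, and peaks of 1 cluster are not independent of each other.

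HIRA is a chaperone that deposits histone H3.3 into nucleosomes independently of DNA replication, mainly at genes and regulatory elements. H3.3 is also found at telomeres and at the satellite DNA beside the centromeres, where it is placed by the chaperone DAXX with ATRX. Mouse genomes hold repeats of several kinds: satellites and minisatellites, in which a unit follows itself in tandem; mobile elements scattered over all chromosomes; and gene families or larger segments that were copied side by side. A short read that fits several copies equally well can be placed on any of them, and the treatment of such reads is not given in the sources used here.

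Close neighbours were frequent at the shortest distances. Of the 6603 neighbouring pairs, 62 lay less than 1 kb apart and 55 lay between 1 and 2 kb apart, against 17.9 pairs per kb between 10 and 20 kb. The linked pairs had a median midpoint distance of 3363 bases, with a range from 363 to 9981 bases. The 3 pairs just inside the limit were 9869, 9870 and 9981 bases apart, and the 3 pairs just outside were 10072, 10073 and 10303 bases apart. The last of these lies between neighbouring clusters of the interferon zeta genes described below, so the limit split 1 array.

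Sharing of sequence fell with distance. A pair was scored as sharing sequence when both peaks held an identical stretch of 32 bases, called a word here, on either strand. Among pairs up to 1 kb apart, 41 of 62 shared a word (66.1%, interval 53.7 to 76.7%). Between 5 and 10 kb the share was 13 of 112 (11.6%, interval 6.91 to 18.9%), and beyond 10 kb it was 176 of 6300 (2.79%, interval 2.41 to 3.23%). Over all linked pairs 95 of 303 shared a word (31.4%, interval 26.4 to 36.8%). Without the 2 clusters of 10 or more peaks the share was 59 of 265 (22.3%), with 58.3% of pairs up to 1 kb and 10% of pairs between 5 and 10 kb. Where both peaks could be aligned at any length, 101 pairs lay in the same orientation and 14 in opposite orientations, and 188 pairs gave no alignment. Alignments of at least 50 bases at 80% identity were found in 97 pairs. Of the 101 pairs, 29 came from the cluster of 30 peaks. The 14 included alignments as short as 20 bases and chromosome X pairs at 69.9 to 72.8% identity.

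**Figure D1:**
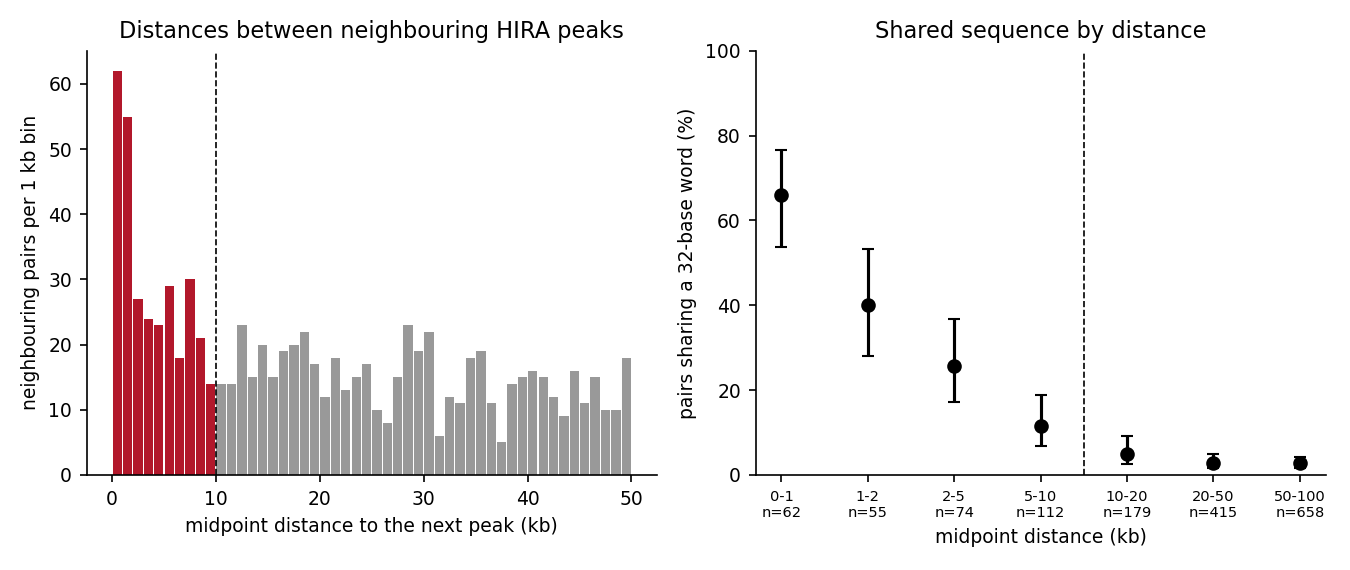
Left, number of neighbouring pairs of HIRA peaks in each 1 kb bin of midpoint distance up to 50 kb, with linked pairs in red and the 10 kb limit dashed. Right, percent of pairs in each distance bin that shared a 32-base word, with 95% Wilson intervals and n pairs below; the share falls from 66.1% up to 1 kb to 2.74% between 50 and 100 kb.

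Most clusters were pairs. There were 202 clusters of 2 peaks, 15 of 3, 5 of 4, 2 of 5 and 2 of 6, and 1 cluster each of 10 and 30 peaks. The 26 clusters of 3 or more peaks held 127 members. The median span from the first to the last base was 5.01 kb, the smallest span was 549 bases and the widest 37.8 kb. Clusters lay on all 21 placed chromosomes. The linked share was highest on chromosome 9, with 54 of 326 peaks (16.6%, interval 12.9 to 21.0%), and on chromosome X, with 58 of 400 (14.5%, interval 11.4 to 18.3%). It was lowest on chromosome 15, with 9 of 260 (3.46%, interval 1.83 to 6.45%). On chromosome 9 a single cluster held 30 of these peaks, and without it the share was 8.11%. On chromosome X, 34 of them lay in a stretch of 1.52 Mb, and without these the share was 6.56%.

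The clusters were sorted into 5 classes by their sequence, with limits that were set after the values had been seen. In 23 clusters (53 peaks) more than 50% of the peaks held a short tandem unit, that is a unit of 10 to 100 bases that repeated within the peak. In 21 clusters (99 peaks) every peak was multi-copy and most of the multi-copy words had all their copies on the cluster's own chromosome. In 72 clusters (145 peaks) the copies were dispersed over several chromosomes. In 55 clusters (114 peaks) the median word of every peak occurred at 1 place in the genome, and the remaining 57 clusters (120 peaks) mixed single-copy and multi-copy peaks. These classes differed in spacing. The median midpoint distance of a linked pair was 731.5 bases in short tandem clusters, 1979.5 bases in own-chromosome clusters, 3402 bases in dispersed clusters, 6160 bases in mixed clusters and 5474 bases in single-copy clusters. All 30 pairs of short tandem clusters shared a word, as did 48 of 78 own-chromosome pairs (61.5%), 13 of 73 dispersed pairs (17.8%), 3 of 63 mixed pairs (4.76%) and 1 of 59 single-copy pairs (1.69%). The classes were set by unit and copy number, so the shares restate their definition in part.

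**Figure D2:**
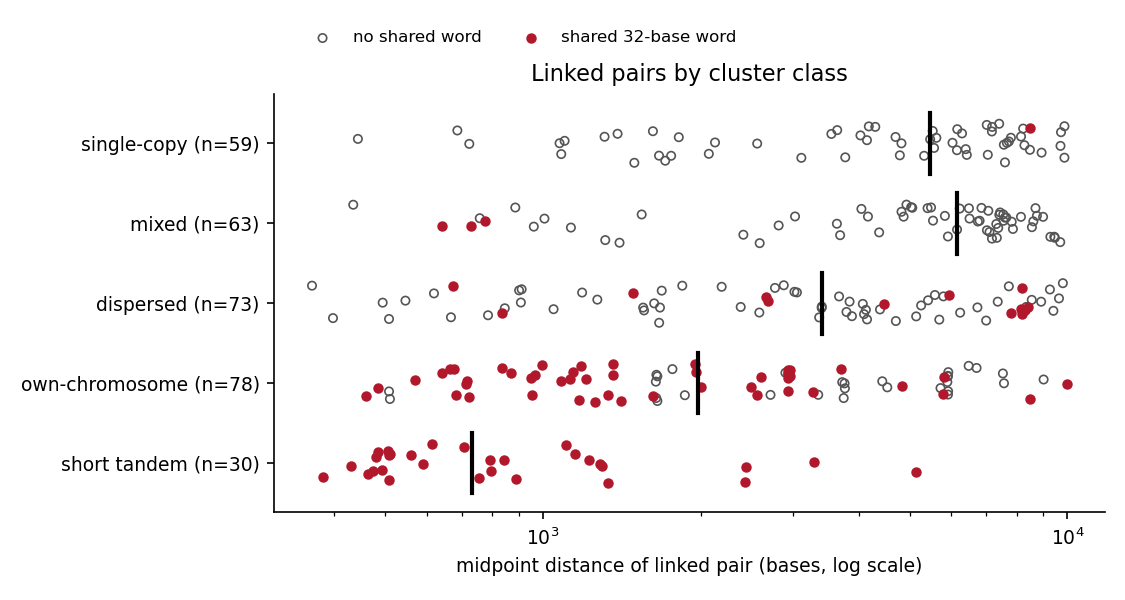
Midpoint distance of each linked pair on a log axis in bases, by the class of its cluster; red points are pairs that shared a 32-base word, open points are pairs that did not, and black bars are medians. Short tandem pairs crowd near their median of 731.5 bases and all share a word, and single-copy pairs centre on 5474 bases.

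Against unlinked peaks, clustered peaks more often held only multi-copy words or a short tandem unit. To count each cluster once, the first peak of each of the 228 clusters was compared with the 6093 unlinked peaks, and the interval of each difference is Newcombe's. Clusters that held copies of the same sequence were still counted separately, and the largest such family, described below, joined 22 clusters. First peaks are thus not all independent, and the intervals can be too narrow. All words of the peak were multi-copy in 96 first peaks (42.1%) and in 1881 unlinked peaks (30.9%), a difference of 11.2 percentage points (interval 4.90 to 17.8). A short tandem unit was present in 27 first peaks (11.8%) and in 346 unlinked peaks (5.68%), a difference of 6.16 points (interval 2.54 to 11.0). Read the other way, 67 of the 413 peaks with a tandem unit were clustered (16.2%, interval 13.0 to 20.1%), against 464 of 6211 without one (7.47%, interval 6.84 to 8.15%). By copy number, 205 of 1250 peaks whose median word occurred at 2 to 99 places were clustered (16.4%). Among peaks whose median word occurred once the clustered share was 174 of 2991 (5.82%), and with 100 or more places it was 152 of 2383 (6.38%).

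Of the simple dinucleotide repeats, which are common in this peak list, the GA repeat was less frequent in the clusters, and for the CA repeat the interval of the difference spanned 0. A run of 4 GA units was found in 25 first peaks (11.0%) and in 997 unlinked peaks (16.4%), a difference of -5.40 points (interval -8.95 to -0.591). The share of unlinked peaks was not taken at other run lengths or with mismatches. Among single-copy peaks the interval of the GA difference spanned 0, as given below. A run of 4 CA units was found in 29 first peaks (12.7%) and 835 unlinked peaks (13.7%), with a difference of -0.985 points (interval -4.80 to 4.04). The interval of the difference also spanned 0 for peaks of which at least 50% was soft-masked, that is written in lower case as repeats in the genome file (0.785 points, interval -5.71 to 6.78). It likewise spanned 0 for intergenic peaks (1.45 points, interval -5.15 to 7.86), for introns (-3.77 points, interval -9.67 to 2.68) and for promoters, taken as 1 kb around a transcript start (1.70 points, interval -1.40 to 6.13). Peaks of 250 bases or more made up 15.8% of first peaks and 10.6% of unlinked peaks (5.17 points, interval 0.934 to 10.5). Of the 15 members of 500 bases or more, 9 lay in short tandem clusters.

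**Figure D3:**
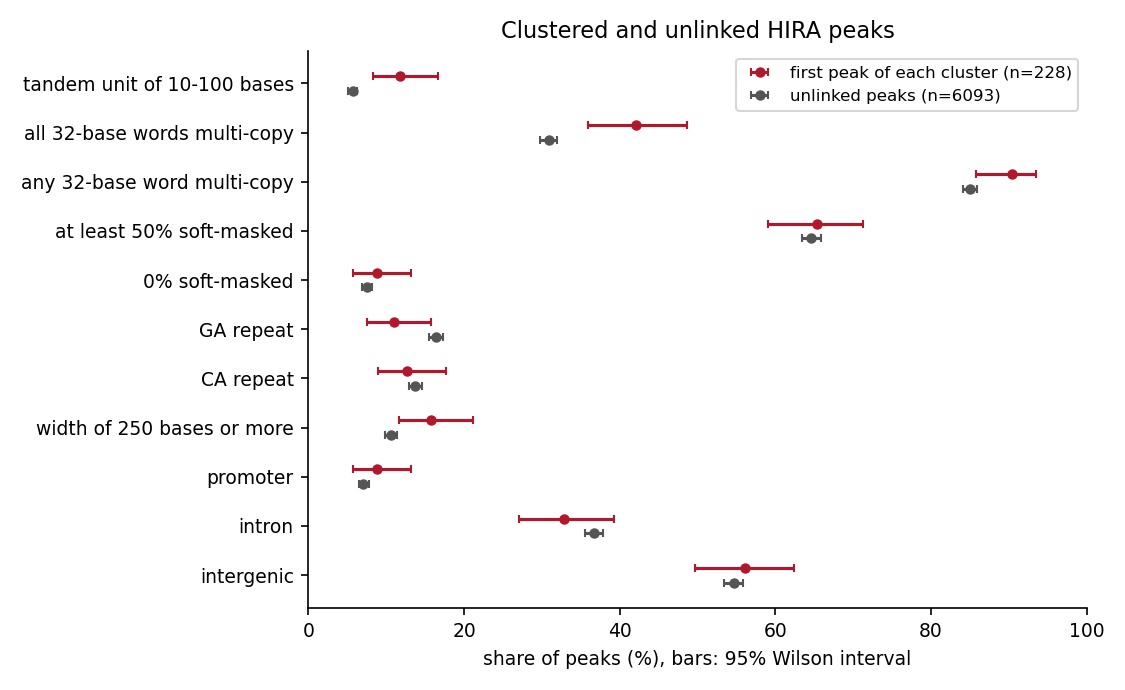
Percent of the first peaks of the 228 clusters (red) and of the 6093 unlinked peaks (grey) with each property, with 95% Wilson intervals. The largest gap is for peaks whose 32-base words are all multi-copy, 42.1% against 30.9%, and the GA repeat is less frequent in first peaks, 11.0% against 16.4%.

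The largest cluster lay at the proximal end of chromosome 9. Its 30 peaks covered chr9:3000342-3038173 of mm10, 37.8 kb close to the first assembled base of the chromosome at 3000001. The most frequent distance between successive copies of a 16-base word within the cluster was 234 bases, the unit length of the major satellite that forms the pericentromeric heterochromatin of mouse chromosomes. If the whole span were made of units of this length, it would hold 162 of them. The peaks took up part of the span. Whether reads from other satellite copies were placed on these peaks was not tested, so they need not mark the units that HIRA bound. The peaks were 158 to 856 bases wide, 461 to 3705 bases apart, and 27 of the 29 neighbouring pairs shared a word. The median word of a peak occurred at 6 to 44 places, and 76.5% of the multi-copy words of the cluster had all their counted copies on chromosome 9. Words were counted on the assembled bases of the 21 placed chromosomes, so satellite copies in unassembled sequence are missing from both values. GENCODE lists the locus inside the long non-coding RNA gene Gm26870, with short gene models such as Gm10722, Gm11168 and Gm10721, and 24 of the 30 peaks counted as promoters through them.

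Part of this sequence was found in other clusters. One lay at chr14:19415739-19418236, where 4 peaks of 179 to 427 bases spanned 2498 bases in the gene model Gm21738. Of its 767 words, 173 (22.6%) were also held by the peaks on chromosome 9, though its own most frequent repeat distance was 351 bases. Another, a pair of 425 and 713 bases at chr2:98662263-98667294 over the gene models Gm10801 and Gm10800, named here after its values were seen, had the same most frequent distance of 234 bases, and 131 of its 795 words (16.5%) were held by the peaks on chromosome 9. To show the satellite sequence, 234 bases of the seventh peak, at chr9:3007594-3007827 on the plus strand, are printed with capitals over the words that the chromosome 14 peaks also held.
chr9 array: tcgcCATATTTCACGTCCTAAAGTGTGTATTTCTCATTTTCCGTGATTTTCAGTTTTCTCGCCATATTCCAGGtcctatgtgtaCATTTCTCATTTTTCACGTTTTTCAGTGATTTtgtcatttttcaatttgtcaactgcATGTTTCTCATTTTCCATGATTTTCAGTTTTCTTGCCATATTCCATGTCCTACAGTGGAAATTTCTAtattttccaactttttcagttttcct

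The second largest cluster lay over the interferon zeta genes of chromosome 4. Interferon zeta, also called limitin, is a type I interferon known from mice, and its gene Ifnz has many close copies in the interferon gene cluster. The 10 peaks spanned chr4:88773780-88806199, 32420 bases, and each lay within 1 kb of a transcript start. The midpoint distances ran 2931, 2928, 2936, 2931, 5795, 2954, 5822, 2963 and 2932 bases, so 7 of the 9 steps were 1 unit of about 2.93 kb and the other 2 steps were near 2 units. Every word of every peak was held by at least 1 other peak of the cluster, and the median word occurred at 13 places in the genome, all of them on chromosome 4 within 100 kb of the cluster. The nearest transcript starts, at 22 to 558 bases, belonged to Gm13290, Gm13289, Gm13272, Ifnz, Gm13276, Gm13278, Gm26525, Gm26867, Gm13287 and Gm13288. A neighbouring cluster of 2 peaks at chr4:88760087-88763686, over the related gene Gm13283, lay just before it and held, as its second peak, a copy of the same kind.

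The sixth peak of this cluster, at chr4:88791336-88791494 on the plus strand, is printed because it alone of the 10 overlapped no annotated exon. Capitals mark the bases that lie in the 95 words held by all 10 peaks.
Ifnz array: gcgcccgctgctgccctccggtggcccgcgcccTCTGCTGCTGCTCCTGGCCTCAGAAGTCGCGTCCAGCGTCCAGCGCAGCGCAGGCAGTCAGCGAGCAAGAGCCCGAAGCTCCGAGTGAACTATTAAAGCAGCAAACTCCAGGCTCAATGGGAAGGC

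**Figure D4:**
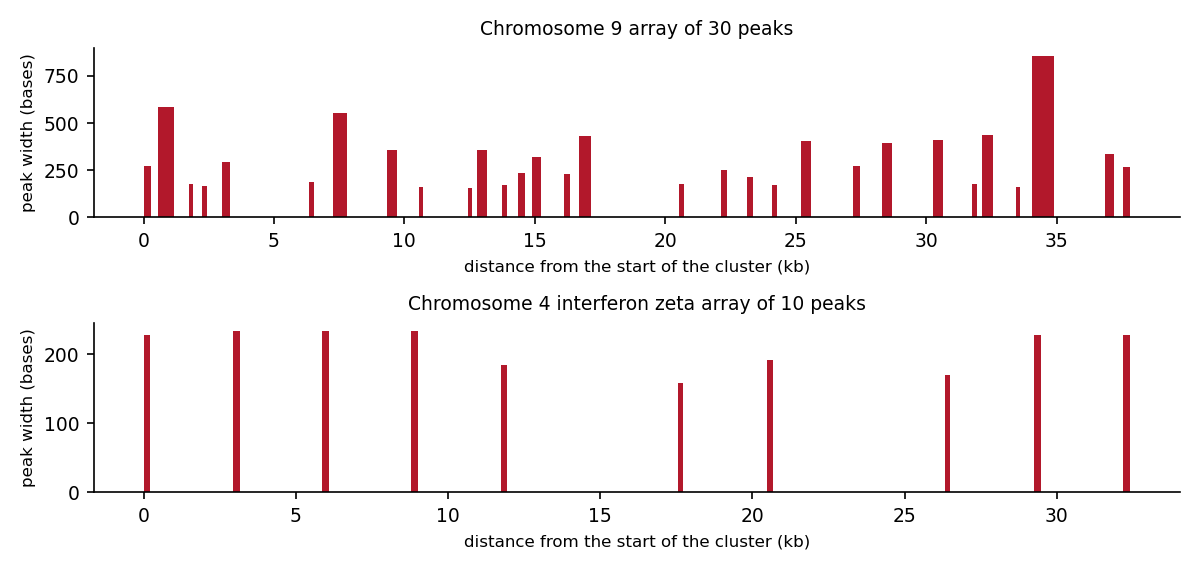
Peaks of the clusters of 30 peaks (top, chromosome 9) and 10 peaks (bottom, chromosome 4) by distance from the start of the cluster in kb; the height of a bar is the peak width in bases. The chromosome 9 peaks are unevenly spaced and up to 856 bases wide, and the chromosome 4 peaks recur at steps near 2.93 kb or 2 of these.

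On chromosome X the same layout of peaks recurred. Between chrX:124484136 and chrX:126008902 there were 8 clusters with 34 peaks, in each of which most multi-copy words had copies on chromosome X alone. In 6 of these clusters the peaks fell into 5 kinds by shared words, labelled A to E in order, and the same kind lay at the same place. Counted from peak A, kind B lay 1642 to 1653 bases on in 5 clusters and kind C lay 7565 to 7570 bases on in 6 clusters. Kind D lay 11289 to 12104 bases on, once or at 2 places, in 6 clusters, and kind E lay 13339 to 13365 bases on in 4 clusters. The 6 clusters held 6, 5, 4, 6, 4 and 5 peaks. They started 129401 to 431408 bases apart. The ends of the copied segments were not mapped, so whether the copies adjoin was not tested. Kinds B and C also made up a seventh cluster of 2 peaks, 5903 bases apart, at chrX:126002823-126008902. In the 6 clusters the median word of a peak occurred at 7 places for kind A, 14 for kind B, 9 to 9.5 for kind C, 18 to 23 for kind D and 11 to 15 for kind E.

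The nearest coding gene models of the first 5 of these 6 clusters were Gm17584, Gm17469, Gm17361, Gm21616 and Gm17693, at 2783 to 4888 bases. These are predicted genes without an established role. All 9 peaks of kind D and all 4 of kind E held the GA repeat, and no peak of kinds A, B or C did. The first cluster gives the sequences of kind A, at chrX:124484136-124484364, and of kind D, at chrX:124496173-124496333, both on the plus strand. Capitals mark in kind A the words found in the A peak of each of the 6 clusters, which is all of its 198 words, and in kind D the longest run of the GA repeat, read here from the other strand as TC.
X kind A: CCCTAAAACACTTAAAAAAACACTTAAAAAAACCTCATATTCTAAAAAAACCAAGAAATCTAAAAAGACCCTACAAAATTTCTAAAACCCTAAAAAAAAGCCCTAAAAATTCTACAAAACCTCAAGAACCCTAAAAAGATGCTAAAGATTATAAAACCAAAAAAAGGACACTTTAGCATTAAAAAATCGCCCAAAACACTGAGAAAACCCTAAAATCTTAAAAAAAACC
X kind D: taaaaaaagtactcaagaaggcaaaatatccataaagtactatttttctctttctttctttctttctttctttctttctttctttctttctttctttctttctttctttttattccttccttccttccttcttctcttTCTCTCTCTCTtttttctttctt

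**Figure D5:**
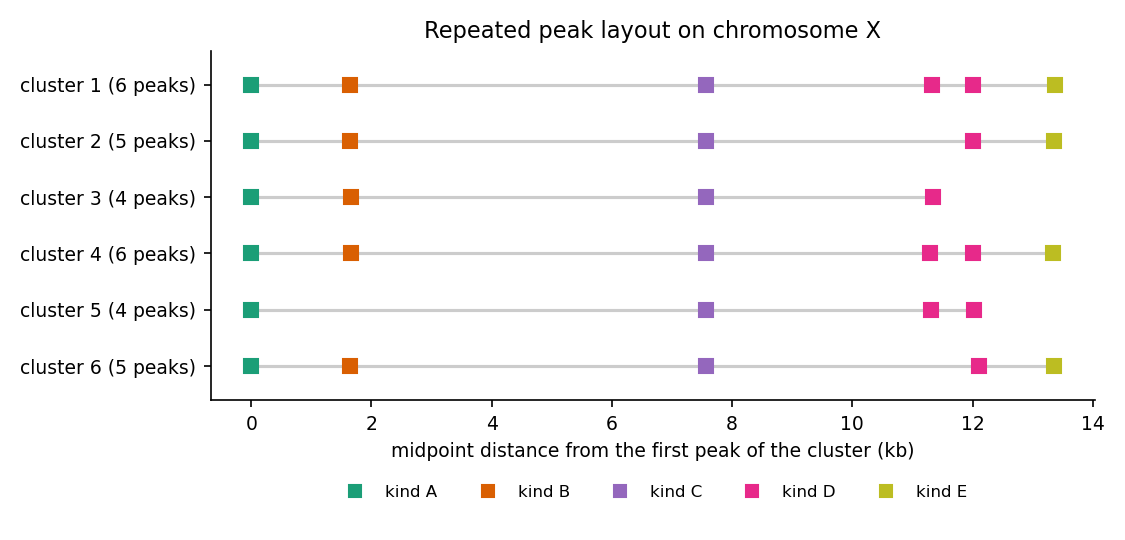
Midpoints of the peaks of 6 clusters of chromosome X by distance from the first peak in kb; colours show the kind of peak by shared words. Kinds A, B and C line up within 11 bases, and kind D appears at 1 or 2 places between 11289 and 12104 bases.

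Smaller arrays of local copies were found elsewhere. On chromosome 6, 4 clusters with 11 peaks lay within 87.4 kb, between positions 114511441 and 114598885, in the interval between the histamine receptor gene Hrh1 and the autophagy gene Atg7. The most frequent distance between successive copies of a word was 2408, 2409 and 2445 bases in 3 of the clusters, with 2, 3 and 4 peaks. The median words of these 11 peaks occurred at 29 to 53 places. On chromosome 3 the 2 peaks of a cluster at chr3:96450970-96459668 were copies of each other in opposite orientations. They were identical over 206 aligned bases and present at 2 places in the genome. The first of them lay in an intron of BC107364 and the second in an intron of Gm10685, at 628 and 624 bases from the transcript starts of the gene model Gm26232 and the small nuclear RNA gene Rnu1b6. The first peak, chr3:96450970-96451177 on the plus strand, is printed with capitals over the words that both peaks held.
BC107364: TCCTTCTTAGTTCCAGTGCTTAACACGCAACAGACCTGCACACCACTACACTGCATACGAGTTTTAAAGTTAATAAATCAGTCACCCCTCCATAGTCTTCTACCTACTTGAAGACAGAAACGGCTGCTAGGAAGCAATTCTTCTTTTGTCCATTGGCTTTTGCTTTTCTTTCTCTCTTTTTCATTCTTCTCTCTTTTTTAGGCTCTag

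Short tandem clusters held 20 of the 62 pairs that lay up to 1 kb apart. In 22 of the 23 short tandem clusters all multi-copy words had their copies on the cluster's own chromosome, and in 21 of these 22 all copies lay within 100 kb of the cluster. These 22 clusters held 51 peaks and spanned 588 to 5306 bases. The most frequent repeat distance within the cluster was 13 to 53 bases, with a median of 33, and 23.4 to 92.9% of word starts recurred at it. Such arrays of short units are known as minisatellites. The gaps between the edges of neighbouring peaks were 174 to 4986 bases, with a median of 295. Whether the array ran on through each gap was not tested. Of the 22 clusters 17 lay inside a gene and 16 inside a protein-coding gene. Among all 228 clusters, 86 lay inside a gene (37.7%) and 72 inside a protein-coding gene (31.6%). No such share was taken for unlinked peaks with a tandem unit, so this need not be particular to clustered ones. In 12 of the 22 less than 50% of the peak bases were soft-masked, and in 10 of them 0%.

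The remaining short tandem cluster, at chrX:3779868-3782524 in the gene model Gm14359, had units of 17 bases and a median of 814 to 940 places per word. Across all 303 pairs, 12 had no soft-masked base in either peak, and 11 of these 12 were short tandem pairs. Those described here lay in Spaca7, Cep128 (2 pairs), Ppm1b, Tdrd1 and the non-coding gene 4930480K23Rik, in Colec12 and Zfp407 of chromosome 18, and in the intergenic sequence nearest to Xylt1 and to Hhip. The other was the single-copy pair in Svil, also on chromosome 18, which encodes the actin-binding protein supervillin.

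The host genes of these arrays had varied roles. In 9 clusters every word was shared between peaks, and 7 of these 9 were short tandem clusters. Ppm1b, a protein phosphatase, held 2 peaks in intron 2 of 5. Tsnax, which encodes translin-associated factor X, held 2 peaks in intron 3 of 5. Fam91a1, which acts in the tethering of vesicles at the Golgi, held 3 peaks in intron 15 of 23, and Xk, a membrane protein of red cells, held 2 in intron 2 of 2. A cluster of 4 peaks at chr7:88266553-88269328, the widest of 654 bases, lay 8757 bases from Ctsc, a lysosomal protease gene, and all its words occurred within the array. A further cluster of 2 peaks lay 255668 bases from Xylt1. Introns are numbered in the transcript with the greatest summed exon length.

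The units differed in length and base composition from array to array. The unit had 57.8% G and C in Ppm1b and 30.6% near Ctsc. In 5 of the 6 printed stretches a unit matched the next over 98.5% of bases or more, and near Ctsc, near Xylt1, in Tsnax and in Fam91a1 the match was 100%. In Ppm1b the most frequent distance was 45 bases within each peak and 46 bases over the cluster, so units of 45 bases run out of step by 1 base and no match is given. Of each of these 6 arrays 3 units from its first peak are printed on the plus strand, with the first unit in capitals, to show that each array has a unit of its own. They lie at chr7:88266553-88266660 near Ctsc, chr7:117124357-117124452 near Xylt1, chr8:125020915-125021040 for Tsnax, chr15:58438456-58438551 for Fam91a1, chr17:85000928-85001062 for Ppm1b and chrX:9295423-9295524 for Xk.
near Ctsc: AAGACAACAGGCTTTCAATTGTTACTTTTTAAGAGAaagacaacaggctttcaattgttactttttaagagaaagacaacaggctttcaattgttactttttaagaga
near Xylt1: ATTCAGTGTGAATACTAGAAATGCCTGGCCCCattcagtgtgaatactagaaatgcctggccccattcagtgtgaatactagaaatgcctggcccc
Tsnax: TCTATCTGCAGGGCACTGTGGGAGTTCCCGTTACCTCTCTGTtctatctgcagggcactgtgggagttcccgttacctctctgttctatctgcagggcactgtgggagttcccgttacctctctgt
Fam91a1: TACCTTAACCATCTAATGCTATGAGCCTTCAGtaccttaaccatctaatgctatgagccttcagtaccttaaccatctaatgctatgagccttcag
Ppm1b: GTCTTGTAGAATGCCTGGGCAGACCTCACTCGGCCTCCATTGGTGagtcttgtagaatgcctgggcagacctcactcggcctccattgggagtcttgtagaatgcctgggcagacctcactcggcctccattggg
Xk: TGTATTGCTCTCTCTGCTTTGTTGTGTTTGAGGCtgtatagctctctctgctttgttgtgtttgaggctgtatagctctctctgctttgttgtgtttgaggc

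The eighth cluster with all words shared was the interferon zeta cluster, and the ninth was made of a 4-base repeat. Its 3 peaks, of 526, 465 and 192 bases, spanned chr9:121930000-121931869, at 13695 bases from Cyp8b1, an enzyme of bile acid synthesis. The first 40 bases of its first peak, chr9:121930000-121930039 on the plus strand, are printed with the first unit in capitals. The median word of the first peak occurred at 3598 places, and 17.2% of the copies lay within 100 kb.
4-base repeat: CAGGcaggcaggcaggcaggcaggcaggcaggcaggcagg

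The shortest gaps between linked peaks were also found in repeats. The 5 shortest were 174 bases near Lat on chromosome 7, 177 bases on chromosome 17 near Vmn2r120, 180 bases within the satellite cluster, 180 bases within the 4-base repeat and 183 bases in Dennd2c. The pairs near Lat and in Dennd2c were short tandem pairs, with units of 28 and 19 bases. The pair on chromosome 17 shared no word.

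Scattered repeats gave a layout of their own. Of the 72 dispersed clusters 71 were pairs, 117 of their 145 peaks were intergenic, the median peak was 100% soft-masked and the median word occurred at 715 places. In 38 of the 73 dispersed pairs at least 95% of the gap between the peaks was soft-masked. When clusters were joined by peaks that shared at least 50% of their words, the largest family held 22 clusters with 44 peaks on 13 chromosomes. Dispersed pairs more than 5 kb apart that shared at least 50% of their words were then singled out. This choice and the 10 kb limit bound their distances, and closer copies were left out. There were 7 such pairs, all in this family, and both peaks of each were near-identical copies in the same orientation. They lay 5946 to 8423 bases apart, with 98.1 to 99.7% of the gap soft-masked. The alignments covered 144 to 187 bases at 99.31 to 100% identity, and the median word of a peak occurred at 43 to 321 places. Direct repeats at this distance are the layout of the long terminal repeats of retroviral elements. The elements were not identified here.

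The pair at chr2:68129788-68138136, 7099 bases from the galactosyltransferase gene B3galt1, shows this layout. Its peaks, chr2:68129788-68129968 and chr2:68137950-68138136, lay 8165 bases apart and are printed on the plus strand with the words that both held in capitals. All 181 bases of the first recurred in the second.
direct repeat peak 1: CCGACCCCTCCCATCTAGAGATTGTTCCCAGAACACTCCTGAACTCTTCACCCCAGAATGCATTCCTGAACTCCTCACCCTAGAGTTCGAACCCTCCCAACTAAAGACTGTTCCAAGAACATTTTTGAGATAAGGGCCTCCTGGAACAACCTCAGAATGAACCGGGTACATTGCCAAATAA
direct repeat peak 2: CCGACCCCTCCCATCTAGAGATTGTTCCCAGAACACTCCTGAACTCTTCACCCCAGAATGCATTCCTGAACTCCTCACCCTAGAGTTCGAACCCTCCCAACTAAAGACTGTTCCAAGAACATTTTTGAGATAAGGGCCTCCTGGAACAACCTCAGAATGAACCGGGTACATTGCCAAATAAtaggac

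Of the 303 linked pairs 208 shared no word, and these comprised 60 mixed, 60 dispersed, 58 single-copy and 30 own-chromosome pairs. The single-copy clusters are described here. Of the 55 single-copy clusters 51 were pairs and 4 held 3 peaks, 32 lay inside a gene and 25 inside a protein-coding gene. Their 114 peaks comprised 58 in introns, 41 intergenic, 10 at promoters and 5 in exons. The GA repeat was present in 27 of the peaks (23.7%) and the CA repeat in 30 (26.3%), both above the 16.4% and 13.7% of all unlinked peaks. Against unlinked peaks that were also single-copy, of which 28.3% held GA and 26.5% held CA, the first peaks of these clusters differed by -6.44 points for GA (interval -15.5 to 6.22) and by 4.39 points for CA (interval -6.36 to 17.6). Of the 4 clusters of 3 peaks, 3 are named here after the values were seen, and they lay in the phosphodiesterase gene Pde7b, near the atrial myosin light chain gene Myl7, and beside the gene model Gm43447 at 96811 bases from Lmo4, the nearest protein-coding gene. Pairs inside genes with a role in development, also named after the values were seen, were found in Tgfb2, Tead1, Bmp6, Ptk7 and Dcx. They were picked by hand from the 25 clusters inside a protein-coding gene, and others of these lay in Atg4b, Smyd3 and Ppm1l. No share of genes with such a role was taken, so no link to development can be read from these names.

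Myl7 encodes the atrial regulatory light chain of myosin and is a marker of atrial muscle. Its 3 peaks of 209, 296 and 172 bases spanned chr11:5891476-5894406, 2931 bases, with midpoint distances of 1665 and 1076 bases. Myl7 lies on the minus strand at chr11:5896637-5898782, so the cluster lay downstream of it, with a nearest edge 2231 bases away. The 3 midpoints lay 4461 to 7202 bases from the transcript start. The second and the third peak held only words found at 1 place, while the first ended in a 5-base tandem repeat. The peaks were scanned on both strands for AGATAA, a motif of GATA factors, GGAATG, a motif of TEAD factors, and TNAAGTG, a motif of NKX2-5, 3 families that act in heart muscle. The matches, in capitals, were 1 GGAATG in the first peak, 1 AGATAA in the second and 1 GGAATG in the third. The peaks are chr11:5891476-5891684, chr11:5893097-5893392 and chr11:5894235-5894406, printed on the plus strand after their values were seen.
Myl7 peak 1: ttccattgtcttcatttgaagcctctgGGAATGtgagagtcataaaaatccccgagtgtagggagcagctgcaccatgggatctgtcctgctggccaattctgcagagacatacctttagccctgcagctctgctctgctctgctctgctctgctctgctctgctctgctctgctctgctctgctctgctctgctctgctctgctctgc
Myl7 peak 2: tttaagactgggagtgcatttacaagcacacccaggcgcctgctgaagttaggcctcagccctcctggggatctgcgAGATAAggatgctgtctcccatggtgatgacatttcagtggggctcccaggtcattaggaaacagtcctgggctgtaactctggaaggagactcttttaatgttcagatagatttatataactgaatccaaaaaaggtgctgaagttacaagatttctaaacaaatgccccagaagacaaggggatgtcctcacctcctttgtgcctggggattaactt
Myl7 peak 3: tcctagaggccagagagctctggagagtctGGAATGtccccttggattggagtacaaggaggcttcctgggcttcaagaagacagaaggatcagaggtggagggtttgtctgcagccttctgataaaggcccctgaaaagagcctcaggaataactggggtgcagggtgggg

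In windows of 150 bases around the midpoints, TNAAGTG was present in 64 of the 531 members (12.1%, interval 9.55 to 15.1%) and in 300 of 6093 unlinked peaks (4.92%). Of these 64 peaks 27 lay in the satellite cluster of chromosome 9, where 27 of 30 peaks held it (90%), and in clusters of fewer than 10 peaks the share was 37 of 491 (7.54%, interval 5.52 to 10.2%). Counted once per cluster, 21 of 228 first peaks held it (9.21%), which is 4.29 points above unlinked peaks (interval 1.13 to 8.78). For AGATAA and GGAATG the difference of first peaks from unlinked peaks was 2.51 points (interval -0.751 to 7.08) and 3.34 points (interval -0.0799 to 8.04). By class, dispersed clusters held AGATAA in 27 of 145 peaks (18.6%) and GGAATG in 20 of 145 (13.8%). No share was taken for unlinked peaks of like copy number, and copies of 1 repeat were counted here as separate peaks. In single-copy clusters the intervals of all 3 motifs held the share of unlinked single-copy peaks. AGATAA was present in 10 of the 114 peaks of single-copy clusters (8.77%, interval 4.83 to 15.4%) and in 242 of 2817 unlinked single-copy peaks (8.59%). GGAATG was present in 11 of 114 (9.65%, interval 5.47 to 16.5%) and in 229 of 2817 (8.13%), and TNAAGTG in 6 of 114 (5.26%, interval 2.43 to 11.0%) and in 179 of 2817 (6.35%). Over all 6624 peaks the shares were 7.35%, 7.26% and 5.50%. No motif contains another, and a match is only a run of these letters.

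Myh7, the gene of the beta myosin heavy chain, had a single-copy pair upstream. The peaks, of 164 and 392 bases, spanned chr14:54997162-55005105 and lay 2618 and 10284 bases from the Myh7 transcript start, since the gene lies on the minus strand at chr14:54970684-54994626. The distant peak was beyond the window of 5 kb used for the gene lists, so the pair is named here after its values were seen. All words of both peaks occurred at 1 place in the genome, and neither peak held any of the 3 motifs. The first peak, chr14:54997162-54997325, is printed on the plus strand in lower case, since it held no match.
Myh7 peak 1: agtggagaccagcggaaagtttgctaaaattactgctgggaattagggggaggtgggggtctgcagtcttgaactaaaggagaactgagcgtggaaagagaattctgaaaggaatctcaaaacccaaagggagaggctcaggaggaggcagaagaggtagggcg

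Tgfb2, a ligand that acts in the formation of the endocardial cushions and valves, held a pair of peaks in intron 1 of 6 at chr1:186699933-186701915. The peaks were 171 and 163 bases wide, 1816 bases apart and 4315 and 2499 bases downstream of the nearest of the transcript starts annotated for Tgfb2. The first peak was free of soft-masking and held TNAAGTG on each strand, in capitals below, while the second was 53.4% soft-masked and held the GA repeat. The printed peak is chr1:186699933-186700103, plus strand.
Tgfb2 peak 1: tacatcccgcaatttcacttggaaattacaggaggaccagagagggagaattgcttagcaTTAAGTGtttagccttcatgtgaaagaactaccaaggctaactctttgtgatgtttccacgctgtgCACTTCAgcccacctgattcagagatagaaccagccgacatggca

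Over all genes, 3852 overlapped a peak or lay within 5 kb of one, and 207 of these (5.37%) had a clustered peak. The gene lists are read beside this share, and most hold too few genes with a peak to tell a difference from it. Of 18 genes of ion channels and calcium handling, 10 overlapped a peak or lay up to 5 kb from one, and Cacna1c had 2 of 1 cluster. Cacna1c encodes the pore of the cardiac L-type calcium channel, and its peaks lay 4048 bases apart in intron 3 of 46, at chr6:118884839-118889082. The first was single-copy with a GA repeat, and the second had a median of 14031 places per word, so this was a mixed pair. Of 30 sarcomere genes 10 had a peak, Myl7 and Myh7 had a clustered peak and Myl7 had 2 or more of 1 cluster. Of 19 genes of septation and cushions 9 had a peak, and Tgfb2 was the one with a clustered peak. Of 23 cardiac transcription factors 7 had a peak and 0 had a clustered one, and of 11 genes of H3.3, HIRA and its partners 1 had a peak and 0 a clustered one.

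The large gene families are given by the same counts. Of 1407 olfactory receptor genes 34 had a peak within 5 kb and 0 had a clustered one, and of 70 protocadherin genes the counts were 34 and 0. At 5.37% of genes with a peak, such counts of 0 are near what all genes gave. A peak can count for several genes that overlap or lie close together, so the genes of a family are not independent counts. Of 181 ribosomal RNA genes 16 had a peak, of 70 histone genes 5 and of 116 keratin genes 1, and 0 had a clustered one. The 64 defensin genes, 14 genes of the Speer and takusan family and 10 multicopy genes of the Y and X had 0 peaks of any kind. Of 653 immunoglobulin and T cell receptor segments 27 had a peak and 2 had a clustered one, Ighv1-34 and Igkv9-124. Of 565 vomeronasal receptor genes 35 had a peak, Vmn2r-ps117 had 1 clustered peak, and Vmn2r13 held a dispersed pair, both in introns, with medians of 3556 and 14172 places per word. Of 49 major urinary protein genes and pseudogenes 6 had a peak, and Mup-ps5 had both peaks of a pair. Of 421 zinc finger genes 38 had a peak, and Zfp407 on chromosome 18 held a short tandem pair with a unit of 46 bases.

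Over all clusters, 86 of 228 lay with every peak inside 1 gene (37.7%, interval 31.7 to 44.2%), and in 72 of these the gene was protein-coding. In 123 clusters every peak was intergenic. Promoters took 68 of the 531 members (12.8%), but 24 of these 68 were in the satellite cluster and 10 in the interferon zeta cluster, and without these clusters the share was 6.92%, near the 7.07% of unlinked peaks. The GA repeat was present in 2 or more peaks of 10 clusters, 5 of them copies of the chromosome X layout, and the CA repeat in 2 or more peaks of 9 clusters. The part that the placing of reads on repeated sequence had in the clusters was not tested.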

How the data were processed

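Per the labels, 1 HIRA ChIP library and 1 input library were made from 30 pooled wild type CD1 hearts. Reads were placed on mm10 by the authors using Bowtie2, duplicates and reads of poor quality were discarded, and MACS within Strand NGS compared ChIP with input to find peaks. The header of the deposited list gives a p-value cutoff of 0.001, while the methods name a stricter one. The deposited list holds peak positions, with no score or height, so the depth is unknown; the reads were not analysed here. Peaks are printed counting from 1. Bases, soft-masking and 32-base words came from the NCBI file of GRCm38.p6 (mm10), and each word was counted on both strands of the 21 placed chromosomes. Genes came from GENCODE M21. Neighbours were aligned with blastn 2.17.0, and other steps used Python 3.11.15, numpy 2.4.6 and pandas 2.3.3. Scripts were tested on simulated data. The members and gene lists were chosen with earlier results of these data known. Clusters were described singly when they held 4 or more peaks, shared the most words (the 8 highest, 9 with ties), had the 5 shortest gaps or the least soft-masking (5, 12 with ties), or had 2 peaks within 5 kb of a listed gene; exceptions are stated, and some loci are not reported here. No p-value was computed, since there is 1 library. Alternatives changed the link distance, peak set, annotation, word, masking and repeat limits.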

Additional observations from a re-analysis of the deposited data

How the results depend on the processing

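No paired analysis was possible because a single ChIP library was made. Of 110 values under alternatives, 73 stayed within 1.5 times the main count or within the 95% interval of the main value; measuring from end to start, autosomes alone and first peaks alone moved none. With a 5 kb limit there were 330 members, 139 clusters and 191 pairs, the median span was 2412 bases, the median width 192 bases, and the shares were 70.3% mostly soft-masked, 92.4% with a multi-copy word, 7.27% with the CA repeat and 42.9% of pairs with a shared word. With 20 kb these were 861 members, 379 clusters, 482 pairs, a span of 9616 bases and 21.6% of pairs with a shared word. Merging peaks within 1 kb gave a span of 5997 bases and 19.4% of pairs with a shared word. Peaks wider than the median gave 182 members, 72 clusters, 110 pairs, 23.6% of clusters with 3 or more peaks, a span of 3088 bases, a width of 229.5 bases, 44.5% intergenic, 8.79% with the GA repeat, 2.75% with the CA repeat and 50.9% of pairs with a shared word. Without the 2 clusters of 10 or more peaks, an alternative chosen after seeing the data, 58.7% were intergenic and 22.3% of pairs shared a word. Protein-coding genes alone gave 61.0% intergenic and 31.6% of clusters inside 1 gene, and 5 kb around genes gave 46.1%. An 80% limit gave 54.6% soft-masked. Words of 24 bases gave 93.0% with a multi-copy word and a minimum of 10 places 85.3%. Runs of 6 units gave 8.85% with the GA repeat, and 1 mismatch gave 29.6% with GA and 27.5% with CA. The cause of these shifts was not tested beyond the construction of each alternative. The list holds no reads, so the effect of depth could not be measured, and a gap between peaks does not show absence of HIRA.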
